A study of Mus musculus with 11 samples.

Results

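Upstream antisense RNAs (uaRNAs) are short-lived noncoding transcripts that leave a promoter in the direction opposite to its gene, here called the host. ZC3H4 and its partner WDR82 form the Restrictor, a complex that attenuates early noncoding transcription, and uaRNAs are among its known targets. The regions described here are the uaRNAs that were well measured in control cells and had nearly the same level in the libraries labelled siZC3H4. They were chosen by 2 conditions on the deposited uaRNA table. The mean of the siNT libraries had to be 50 depth-scaled reads or more, and the log2 difference of group means (each plus 1) had to lie within 0.2 of 0 in either direction. Of 5867 uaRNAs, 2704 had a siNT mean of 50 or more and 317 of those met both conditions, which is 11.7% of the 2704. Of the other 2387, 2206 lay above the limit and 181 below it.

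Nascent RNA was captured by TT-seq, in which cells take up 4-thiouridine (4sU) and the labelled RNA is pulled down, in wild-type F121-9 cells, a female CAST/129 hybrid mouse embryonic stem cell line. One group received an siRNA against Zc3h4 (siZC3H4, replicates 2 and 3, n = 2) and the other a non-targeting siRNA (siNT, replicates 1, 2 and 3, n = 3). Transfection used 30 nM siRNA in each group, harvest was at 47 hours, and 4sU was given at 500 µM for 20 minutes. Samples of DMSO- and dTAG-13-treated clones in the series are not analysed here.

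Before scaling, exon reads totalled 14840637 to 26548710 per library and uaRNA reads 996927 to 2648683. Exon reads of Zc3h4 itself were 7002 ± 401 (SD, n = 2) in the libraries labelled siZC3H4 and 3479 ± 125 (SD, n = 3) in siNT libraries, so the target's nascent reads rose (limma adjusted p = 0.0043), and every direction below rests on the labels. Without siNT replicate 1 or without siZC3H4 replicate 2 this call was lost (adjusted p = 0.056 and 0.057 in limma), with a log2 difference of 1.01 and 0.95, against 1.01 with all libraries. The 8 embryonic stem cell markers examined had between 1108 and 28214 exon reads per kb of transcript in every library, while the 7 of 15 markers of other cells that the gene table lists stayed at or below 113 reads per kb. In these bulk samples fewer cells with a transcript and less of it per cell cannot be told apart. Values below are in reads after division by a per-library factor for depth, set by the authors, and "insensitive" is meant relative to those factors, under which the median gene differed by log2 0.01 between groups. With factors computed from the uaRNA table alone, by the median of ratios, 696 regions met both conditions and 0 of the 317 was among them. Under the authors' factors the median uaRNA tested differed by log2 0.88, which such factors bring near 0. A shift of that size moves all 317 beyond the limit, so the 0 is fixed by arithmetic.

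The sequences upstream of 5 insensitive hosts are shown because no opposite-strand gene is annotated within 2 kb upstream of them. Wdr82 and Cstf3 are hosts from the transcription termination lists, and Zbtb2, Mus81 and Tmem238 had the highest siNT levels among such hosts. Bases were taken from RefSeq promoters (GRCm38.p6, the build mm10 of the deposited gene table) and end upstream of both annotated host starts. Each is read 5′ to 3′ in the direction of the antisense transcript, beginning at the end nearer the host start. That end need not touch the deposited start: for Zbtb2 it is 4388109, and the deposited start is 4387931. The windows are chr9:106170679-106170928 (minus strand) for Wdr82, chr2:104590234-104590483 (minus strand) for Cstf3, chr10:4388109-4388358 (plus strand) for Zbtb2, chr19:5488380-5488629 (plus strand) for Mus81 and chr7:4789568-4789810 (plus strand) for Tmem238. Capitals mark GTGAG. The search also covered GTAAG, the poly(A) signal AATAAA and its variant ATTAAA on the same strand, and none of these 3 is in the windows.
Wdr82: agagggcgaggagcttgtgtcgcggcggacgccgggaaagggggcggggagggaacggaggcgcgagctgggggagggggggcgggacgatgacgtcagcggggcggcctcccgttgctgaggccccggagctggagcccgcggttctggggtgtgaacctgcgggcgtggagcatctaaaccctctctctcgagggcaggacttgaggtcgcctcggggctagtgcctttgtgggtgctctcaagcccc
Cstf3: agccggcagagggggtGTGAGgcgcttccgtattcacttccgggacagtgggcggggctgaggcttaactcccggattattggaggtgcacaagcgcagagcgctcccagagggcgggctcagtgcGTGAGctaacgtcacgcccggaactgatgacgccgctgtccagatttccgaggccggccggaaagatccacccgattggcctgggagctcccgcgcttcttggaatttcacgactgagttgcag
Zbtb2: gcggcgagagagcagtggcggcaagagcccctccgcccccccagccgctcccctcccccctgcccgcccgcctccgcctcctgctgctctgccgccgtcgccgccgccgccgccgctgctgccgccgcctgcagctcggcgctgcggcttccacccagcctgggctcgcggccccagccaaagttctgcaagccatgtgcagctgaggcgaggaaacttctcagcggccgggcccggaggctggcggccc
Mus81: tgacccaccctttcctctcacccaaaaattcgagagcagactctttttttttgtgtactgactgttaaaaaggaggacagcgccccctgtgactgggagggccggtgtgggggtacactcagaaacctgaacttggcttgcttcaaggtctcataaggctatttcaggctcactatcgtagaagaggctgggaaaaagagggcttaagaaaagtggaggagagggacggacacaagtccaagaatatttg
Tmem238: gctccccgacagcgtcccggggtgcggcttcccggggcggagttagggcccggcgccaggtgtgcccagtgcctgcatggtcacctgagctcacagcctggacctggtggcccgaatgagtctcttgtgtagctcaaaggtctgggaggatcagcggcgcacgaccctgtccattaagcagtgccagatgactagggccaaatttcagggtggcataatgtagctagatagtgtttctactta

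The 5 windows differed widely in base composition. The Zbtb2 window was the richest, with a GC content of 77.2% and 28 CpG dinucleotides, followed by Wdr82 with 70.8% and 24. Cstf3 had 62.8% and 22, and Tmem238 had 60.1% and 12. The Mus81 window was the poorest, with a GC content of 48.8% and 5 CpG dinucleotides. The Cstf3 window held GTGAG at 2 places and the others at none.

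The same windows were available for 228 of the 317 insensitive uaRNAs and 1846 of the 2387 other well-measured ones. Their median GC content was 61.2% and 62.4%, and their median CpG count 17.5 and 19. The 5′ splice site-like motif GTGAG, read on the antisense strand only, occurred in 26.3% of insensitive windows, 22.3% of the others and 24.6% of all 32851 RefSeq promoters. GTAAG occurred in 7.89%, 9.15% and 12.8% of the same sets. AATAAA occurred in 5.70%, 3.20% and 9.49%, and ATTAAA in 3.51%, 2.93% and 6.82%. No test across regions was made, and a match is a description of letters, not a site.

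Since the rule used both groups of the uaRNA table, the levels of the insensitive uaRNAs are given as a description. Summed over the 317, they held 188290 and 192262 depth-scaled reads in the libraries labelled siZC3H4, against 200307, 179758 and 197023 in siNT libraries. They made up 12.6% and 13.9% of all uaRNA reads in the libraries labelled siZC3H4 and 20.1%, 20.0% and 19.3% in siNT libraries. Of all 5124 uaRNAs tested, limma called 62.1% higher and 1.13% lower in the libraries labelled siZC3H4. Among the 317 it called 0, which the rule fixes.

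**Figure D1:**
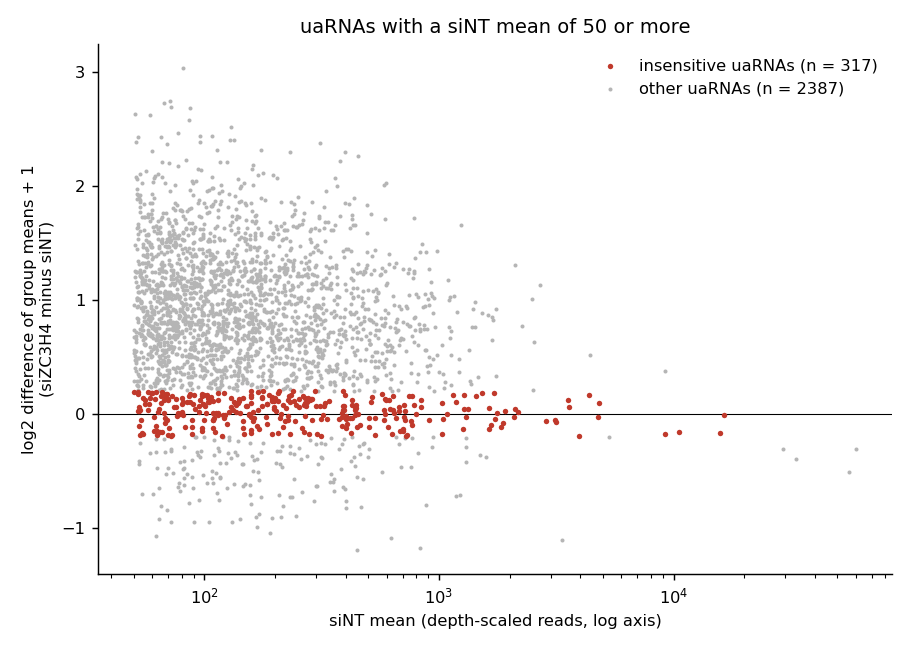
Log2 difference of group means plus 1 (siZC3H4 minus siNT, vertical axis) against the siNT mean in depth-scaled reads (log axis) for the 2704 uaRNAs with a siNT mean of 50 or more, 1 point each. The 317 insensitive uaRNAs (red) form the band within 0.2 of 0 that the rule cuts out, and the other 2387 (grey) lie mostly above it.

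The rule cuts through a continuous range of differences. The last members inside the upper limit were the uaRNAs of Mief2 and Scaf4 (log2 difference 0.1995 for both), and the first outside it were those of Erc1 (0.2014) and Slc16a1 (0.2016). At the lower limit the uaRNAs of Arcn1 (-0.1975) and Zbtb2 (-0.1964) lay just inside, and those of Ccdc116 (-0.2001) and Rbm33 (-0.2028) just outside. The median standard error of a member's log2 difference was 0.25, wider than the limit itself. The intervals of all 317 (95%, limma) held 0, which the rule and this error fix, so it adds nothing to the choice of members.

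The single libraries are given as a description, since the rule used their mean and so draws their medians towards 0. The siZC3H4 replicate 2 library lay at a median of log2 0.01 from the siNT mean over the insensitive uaRNAs and replicate 3 at 0.03, against 0.86 and 0.68 over all 2704 well-measured uaRNAs. Both siZC3H4 libraries lay within the limit in 133 of the 317, and both lay inside the range of the siNT libraries in 153. In 183 the pair of siZC3H4 libraries fell on opposite sides of the siNT mean. When any 1 library was left out, between 195 and 254 of the 317 still met the rule, and 87 met it whichever library was left out.

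The largest gaps between the siZC3H4 libraries were in the uaRNAs of Itpa, Wdr75 and Crtac1. The Itpa uaRNA, whose host encodes an inosine triphosphatase, had 82.1 and 38.2 reads in the libraries labelled siZC3H4 and 74, 42.6 and 46.9 in siNT libraries. The Wdr75 uaRNA had 144 and 282 reads in the libraries labelled siZC3H4 and 199, 187 and 198 in siNT libraries. The Crtac1 uaRNA had 78.7 and 40.2 reads in the libraries labelled siZC3H4 and 58, 56.5 and 41.0 in siNT libraries. In all 3 the group means are close only because 1 siZC3H4 library was above and the other below the siNT mean.

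The insensitive uaRNAs covered a wide range of levels, with 84 of 317 at a siNT mean of 50 to 100, and took a larger share of the regions at high levels. The rule used the siNT mean, so this is a description. Their median siNT mean was 197 reads (range 50.3 to 16391), against 128 for the other well-measured uaRNAs and 171 for those below the limit. They were 8.43% of regions with a siNT mean of 50 to 100, 9.83% of those of 100 to 200, 12.5% of 200 to 500 and 40 of 210 regions of 500 to 1000. Above 1000 reads they were 38 of 92 regions, or 41.3%.

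Among the insensitive uaRNAs the region with the most reads was that of Rnf151 (ENSMUSG00000008482, minus strand, chr17:24715839-24718321), a RING finger gene. It held 15655 and 16937 reads in the libraries labelled siZC3H4 and 17535, 14920 and 16718 in siNT libraries. Next came that of the linker histone gene H1f1 (chr13:23763666-23764406), with 12331 and 15816 reads in the libraries labelled siZC3H4 and 16955, 14757 and 15822 in siNT libraries. The region of Atf5, a bZIP transcription factor gene, held 9011 and 9978 reads in the libraries labelled siZC3H4 and 11557, 8822 and 11321 in siNT libraries. In Rnf151 and Atf5 both siZC3H4 libraries lay inside the siNT range, while in H1f1 replicate 2 lay below it.

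The region of 1810009A15Rik held 8059 and 8242 reads in the libraries labelled siZC3H4 and 10522, 7936 and 9131 in siNT libraries. That of Pcif1, which encodes the methyltransferase of cap-adjacent adenosines, held 5324 and 4970 in the libraries labelled siZC3H4 and 5455, 4516 and 4505 in siNT libraries. That of Sgsm2, a regulator of RAB GTPases, held 4905 and 4505 in the libraries labelled siZC3H4 and 5101, 4780 and 4478 in siNT libraries. All 3 lay inside the siNT range, as did the region of Mrpl18, a mitochondrial ribosomal protein gene, with 3667 and 4036 reads in the libraries labelled siZC3H4 and 3159, 3270 and 4200 in siNT libraries.

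The region of the valyl-tRNA synthetase gene Vars had 5266 and 4533 reads in the libraries labelled siZC3H4 and 4658, 4245 and 4159 in siNT libraries. The Mex3a region, whose host encodes an RNA-binding protein, had 3199 and 2797 in the libraries labelled siZC3H4 and 3482, 3150 and 2698 in siNT libraries. The region of Taf5l, a subunit of a histone acetyltransferase complex, had 1615 and 1747 in the libraries labelled siZC3H4 and 1768, 1679 and 1740 in siNT libraries. The groups overlapped in each of these.

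**Figure D2:**
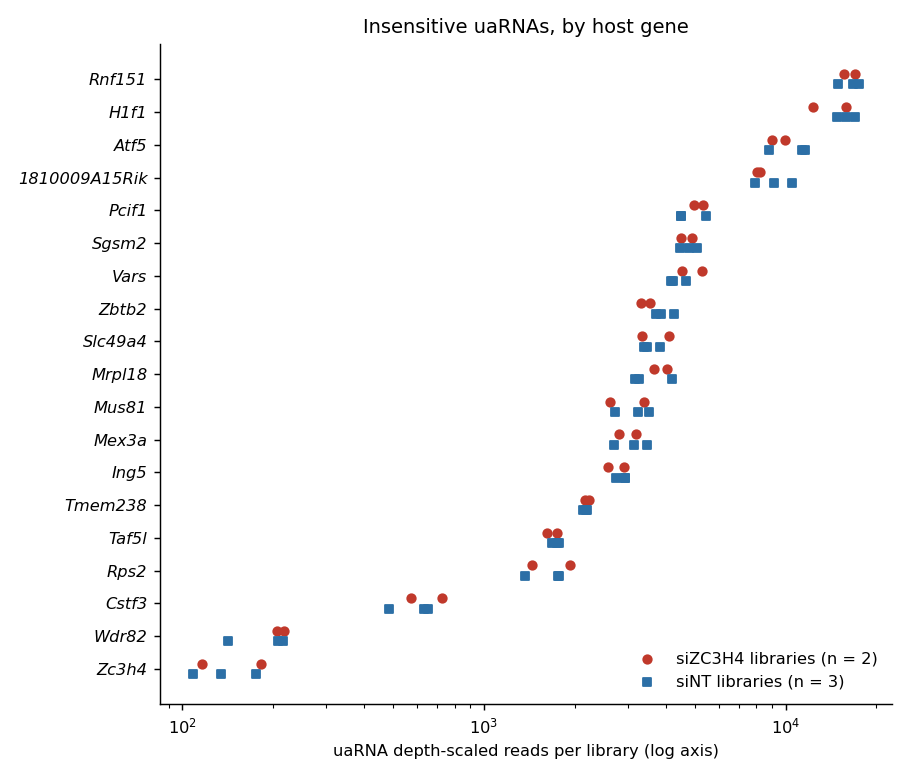
Depth-scaled uaRNA reads per library (log axis) for 19 insensitive uaRNAs named by host gene, with the 2 siZC3H4 libraries (red circles) drawn above the 3 siNT libraries (blue squares). Levels run from 109 reads for Zc3h4 to 17535 for Rnf151, and the groups overlap in every host drawn except Zbtb2, whose siZC3H4 libraries both lie below all siNT libraries.

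Annotated genes on the opposite strand were then counted upstream of each host, from the deposited gene table and RefSeq. A divergent gene start within 1 kb of the host start was present at 32 insensitive uaRNAs (10.1%) and 194 others (8.13%). Starts between 1 and 2 kb upstream were present at 38 of the 317 insensitive uaRNAs and 52 others (2.18%). Counting any opposite-strand gene whose span reaches into the 2 kb upstream, a measure chosen after the values were seen, 111 insensitive uaRNAs (35.0%) had one, against 433 others (18.1%). For protein-coding genes alone the counts were 74 (23.3%) and 159 (6.66%). The share was 24.8% for uaRNAs that differed by log2 0.2 to 0.6, 17.4% for 0.6 to 1, 15.1% for 1 to 2 and 12.3% above 2, and 18.8% for those below -0.2.

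The upstream genes went with the level of the region. At siNT means of 50 to 100, 10 of 84 insensitive uaRNAs (11.9%) had an opposite-strand gene within 2 kb, close to 118 of 912 others (12.9%). At 200 to 500 the counts were 34 of 78 (43.6%) and 127 of 545 (23.3%). At 1000 or more, 31 of 38 insensitive uaRNAs (81.6%) had one and 18 of 54 others (33.3%). These shares are descriptions over regions, several of which face each other, and their part in the uaRNA result was not tested.

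**Figure D3:**
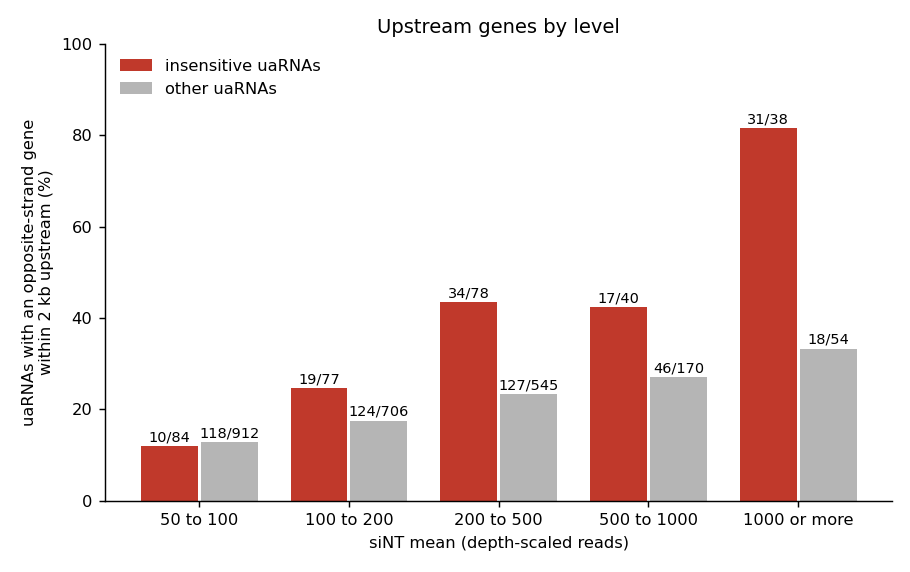
Percent of uaRNAs with an opposite-strand gene within 2 kb upstream of the host start (vertical axis), by siNT mean in depth-scaled reads, for insensitive (red, left) and other (grey, right) uaRNAs, with counts above the bars. The bars are 11.9% and 12.9% at 50 to 100 reads and 81.6% and 33.3% at 1000 or more.

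Within 2 kb upstream by either annotation, the gene table gives reads for 75 opposite-strand genes at 72 insensitive hosts. Of these, 68 are protein-coding and 7 lncRNAs. For some, only the RefSeq span reaches the 2 kb, and the gene table's own start lies farther upstream. Examples are Baz2b (84267 bp), Rec114 (81407 bp) and Jmjd1c (30183 bp), and such genes are included in the values below. The uaRNA table gives no region coordinates, so whether a region covers the neighbour's exons cannot be read from it, and the same reads may be counted in both tables. For that reason the neighbours' values are set beside the regions without a test. In the siNT libraries the region held a median of 69.1% of the neighbour's exon reads (interquartile range 33.1% to 115%). The median was 84.0% for uaRNAs above the limit (29.9% to 248%), 42.4% for those below it and 74.1% for both together. A share of this size was thus not particular to the insensitive set. Exon reads of the 75 neighbours of insensitive uaRNAs differed by a median of log2 -0.02 between groups, and 61 of 75 lay within 0.2 of 0. The 105 tested neighbours of uaRNAs above the limit differed by a median of 0.25, with 39 within 0.2 of 0. The 2 sets of neighbours are unlike in level, with a median of 1104 exon reads in siNT libraries against 271 for those above the limit. They also differ in gene type, with 7 lncRNAs of 75 against 22 of 107 listed. The share of all genes within 0.2 of 0 was not counted.

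Rps2, a small ribosomal subunit protein gene at chr17:24720110-24721926, faces Rnf151, and its exon reads were about as many as the reads of the Rnf151 region. Rps2 had 16831 and 16693 exon reads in the libraries labelled siZC3H4 and 17286, 15449 and 16497 in siNT libraries, and the region's siNT mean was 99.9% of that of Rps2. The siNT libraries ranked alike in both, with replicate 1 highest and replicate 2 lowest. Between the siZC3H4 libraries, the region had more reads in replicate 3, while the Rps2 values were nearly equal. Rnf151 itself had a mean of 452 exon reads in the libraries labelled siZC3H4 and 464 in siNT libraries, far below the region upstream of it. The Rps2 uaRNA was insensitive too, with 1928 and 1446 reads in the libraries labelled siZC3H4 and 1773, 1754 and 1364 in siNT libraries.

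Several other regions held about as many reads as the exons of the gene opposite. The region of Reep3, which encodes an endoplasmic reticulum-shaping protein, held 2155 and 2173 reads in the libraries labelled siZC3H4 and 2032, 2364 and 1919 in siNT libraries. Jmjd1c, a histone demethylase family gene, had 2338 and 2029 exon reads in the libraries labelled siZC3H4 and 1875, 2270 and 2404 in siNT libraries. Its RefSeq span reaches the Reep3 start, but the deposited gene table, which gives these reads, starts it 30183 bp upstream. The ranges are close, 1919 to 2364 for the region and 1875 to 2404 for the gene. The libraries did not rank alike: siNT replicate 3 was the lowest for the region and the highest for Jmjd1c.

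The region of Tyw1, a tRNA modification enzyme gene, held 1925 and 1957 reads in the libraries labelled siZC3H4 and 1904, 1763 and 2043 in siNT libraries. Sbds, a ribosome maturation factor gene that starts 1636 bp upstream, had 1615 and 1878 exon reads in the libraries labelled siZC3H4 and 1583, 1463 and 1997 in siNT libraries. The region of Ppp1r16a, a phosphatase regulatory subunit gene, held 1402 and 1171 reads in the libraries labelled siZC3H4 and 1103, 1175 and 1159 in siNT libraries. Opposite it, Foxh1, a transcription factor of Nodal signalling, had 1272 and 1097 exon reads in the libraries labelled siZC3H4 and 1048, 1123 and 1082 in siNT libraries. In the Ppp1r16a pair, siZC3H4 replicate 2 had the most reads in both tables.

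Other regions held a smaller or larger multiple of the neighbour's reads. The Sgsm2 region held 48.3% of the siNT exon reads of Tsr1, a ribosome biogenesis gene, and the Exoc3l region 55.8% of those of E2f4, a cell cycle transcription factor gene. The Mrpl18 region held 52.7% of those of Tcp1, a subunit of the cytosolic chaperonin. The Ing5 region held 111% of those of the thymidylate kinase gene Dtymk, and the Slc49a4 region 156% of those of Hspbap1. The Atf5 region held 153% of those of the nucleoporin gene Nup62, whose annotated start lies 490 bp inside Atf5.

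At the histone cluster, the H1f1 region held 170% of the siNT exon reads of H4c1 and 281% of those of H3c1, core histone genes that start 1936 and 1280 bp upstream. H4c1 had 6878 and 9231 exon reads in the libraries labelled siZC3H4 and 9855, 8590 and 9544 in siNT libraries. H3c1 had 4560 and 5718 in the libraries labelled siZC3H4 and 6179, 5379 and 5366 in siNT libraries. The region and both genes had their fewest reads in siZC3H4 replicate 2. These 3 genes belong to a multigene family, so their reads may be split among near-identical copies.

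Some facing genes were insensitive as a pair. In 7 pairs each gene was the other's upstream neighbour and both uaRNAs met the rule: Nacc1 and Trmt1, Rnf151 and Rps2, Clcn2 and Polr2h, Slc49a4 and Hspbap1, Actr1a and Sufu, Ppp1r16a and Foxh1, and Ankrd13a and Git2. Another pair of neighbours was imprinted: the region of Usp29 held 590 and 632 reads in the libraries labelled siZC3H4 and 711, 590 and 736 in siNT libraries. Peg3, a paternally expressed zinc finger gene whose start lies 708 bp inside Usp29, had 752 and 920 exon reads in the libraries labelled siZC3H4 and 932, 970 and 1266 in siNT libraries. The 7 pairs were picked out after their values were seen.

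**Figure D4:**
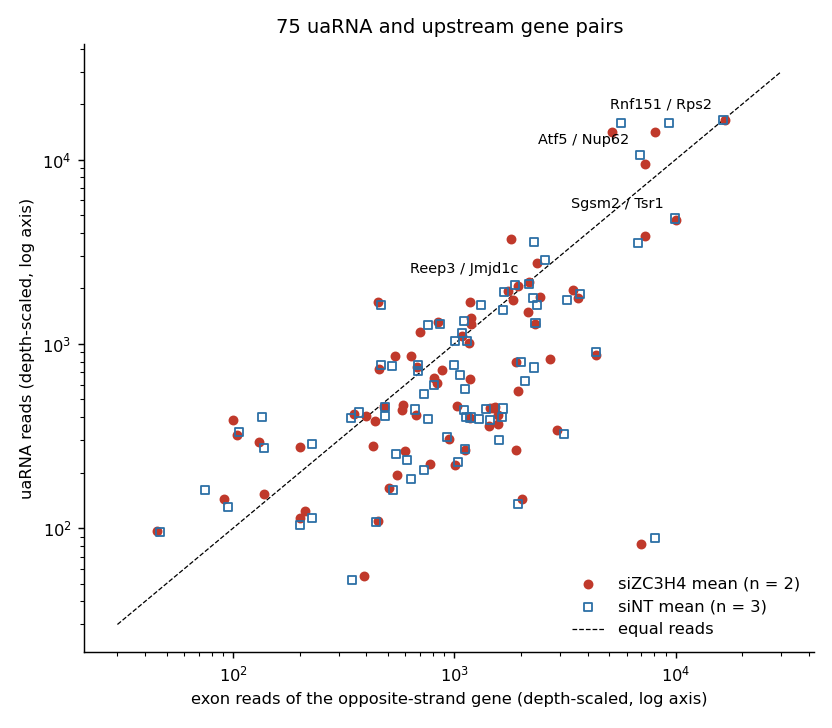
Depth-scaled uaRNA reads (vertical log axis) against exon reads of the opposite-strand gene (horizontal log axis) for 75 pairs, as siZC3H4 means (red circles, n = 2) and siNT means (open blue squares, n = 3), with a dashed line at equal reads. The genes lie within 2 kb upstream by the gene table or by RefSeq, and for some only by RefSeq. Rnf151 with Rps2 lies on the line at 99.9% in siNT libraries. Over all pairs drawn the median is 69.1%, against 74.1% for pairs of other well-measured uaRNAs, which are not drawn.

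Small RNA genes on either strand lay within 2 kb upstream of 13 insensitive uaRNAs (4.10%) and 39 others (1.63%). Of these others, 12 were below the limit (6.63% of that class) and 27 above it (1.22%), so the trait is not particular to the insensitive set. Those near insensitive uaRNAs include Snora78, a snoRNA gene near both Rnf151 and Rps2, Snora57 near 1810009A15Rik, Mir191 and Mir425 near Ndufaf3, and Mir219a-1 near Ring1. The tRNA genes n-TAagc9, n-TRacg2 and n-TSgct6 lay near Ppp6r3, Sacm1l and B4gat1. How many reads of these regions come from such genes cannot be read from the table.

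With neither an opposite-strand nor a small RNA gene within 2 kb, 200 insensitive uaRNAs remained. Their median siNT mean was 138 reads, against 120 for 1923 others chosen in the same way, and both siZC3H4 libraries lay inside the siNT range in 96 of them. Their hosts had a median of 377 exon reads per kb of transcript in siNT libraries, against 482 for hosts of the 1923 others. GTGAG occurred in 27.9% of their 147 available upstream windows and in 22.3% of 1465 windows of the others.

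The highest of these was the uaRNA of Zbtb2, a zinc finger transcription factor gene, whose upstream sequence is the most GC-rich of those printed. It had 3324 and 3561 reads in the libraries labelled siZC3H4 and 4253, 3864 and 3718 in siNT libraries, so both siZC3H4 libraries lay below all siNT libraries, near the lower limit of the rule. The region of Mus81, a structure-specific endonuclease gene, held 2610 and 3403 reads in the libraries labelled siZC3H4 and 3230, 2723 and 3535 in siNT libraries. Cfl1, the cofilin gene, lies upstream on the opposite strand with its near end, the start, 2104 bp away, and its exon reads were 8881 and 9595 in the libraries labelled siZC3H4 and 9293, 8710 and 10625 in siNT libraries. The region of Tmem238 held 2234 and 2166 reads in the libraries labelled siZC3H4 and 2187, 2123 and 2194 in siNT libraries, the narrowest spread of these 3, with the ribosomal protein gene Rpl28 3398 bp away.

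Trim39, Opa3, Rrn3, Rad50, Med26, Pkd2 and Tpm4 also belong to the highest of the 200. The Trim39 uaRNA, whose host is a ubiquitin ligase gene, had 1574 and 1813 reads in the libraries labelled siZC3H4 and 2053, 1524 and 1914 in siNT libraries. The uaRNA of Rrn3, an initiation factor for RNA polymerase I, had 1245 and 1292 in the libraries labelled siZC3H4 and 1216, 1029 and 1299 in siNT libraries. The uaRNA of Med26, a Mediator subunit gene, had 679 and 609 in the libraries labelled siZC3H4 and 742, 773 and 677 in siNT libraries. The groups overlapped in all 3. The uaRNA of Opa3, a mitochondrial protein gene, had 1452 and 1406 in the libraries labelled siZC3H4 and 1258, 1314 and 1252 in siNT libraries, with both siZC3H4 libraries above all siNT libraries. These were singled out after their values were seen.

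Host span and exon level are given beside those of the other well-measured uaRNAs. The median host span was 18210 bp, against 20499 bp, but it was 22626 bp without siZC3H4 replicate 3 and 20569 bp without siNT replicate 2. Of the hosts, 109 of 317 (34.4%) were under 10 kb, against 28.0%. The median host exon level in siNT libraries was 323 reads per kb of transcript, against 458. The median ratio of uaRNA reads to host exon reads per kb was 0.668, against 0.325. These values are not particular to the insensitive set: the 181 uaRNAs below the limit had a median host span of 13295 bp, 280 exon reads per kb and a ratio of 0.709.

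The extremes show how broad the set is. The shortest hosts were H2bc14 (461 bp), a core histone gene, Cebpb (561 bp), a bZIP transcription factor gene, and 2310039H08Rik (582 bp), and the longest were Dock1 (502959 bp), a RAC activator gene, Rims2 (484136 bp), a synaptic scaffold gene, and Arl15 (362896 bp). The ratio of uaRNA to host exon reads per kb was highest for Usp29 (83.8), Rnf151 (51.4) and Atf5 (36.1), all with an opposite-strand gene upstream. It was lowest for Psmb6 (0.0148), Ndufa4 (0.0170) and Slc25a4 (0.0212), hosts with high exon levels that encode a proteasome subunit, a cytochrome oxidase-associated protein and the mitochondrial ADP/ATP carrier.

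Insensitive uaRNAs were found on every chromosome with well-measured regions. They were 30 of 156 such regions (19.2%) on chromosome 8 and 28 of 150 (18.7%) on chromosome 17, against 11.7% overall. They were 5 of 109 (4.59%) on chromosome 6 and 2 of 52 (3.85%) on the X chromosome.

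The transcription termination genes were of interest because the Restrictor's own genes are hosts. The counts below stand beside a share of 11.7% over all 2704 well-measured uaRNAs. Of 4 well-measured uaRNAs on the Restrictor and PNUTS-PP1 list, those of Wdr82 and Zc3h4 were insensitive, while those of Ppp1cc, a catalytic phosphatase subunit, and Srrt (ARS2), a cap-binding complex partner, lay above the limit. The Wdr82 uaRNA had 218 and 207 reads in the libraries labelled siZC3H4 and 208, 142 and 216 in siNT libraries. The Zc3h4 uaRNA had 116 and 183 in the libraries labelled siZC3H4 and 134, 109 and 175 in siNT libraries. The Srrt uaRNA had 1284 and 842 in the libraries labelled siZC3H4 and 403, 350 and 288 in siNT libraries, with no overlap.

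One cleavage and polyadenylation host of 3 was insensitive, Cstf3, which encodes a subunit of the cleavage stimulation factor. Its uaRNA had 572 and 725 reads in the libraries labelled siZC3H4 and 653, 483 and 635 in siNT libraries. None of 4 Integrator, 1 exosome, 7 U1 and pausing, 16 translation initiation, 11 chaperone or 7 replication hosts was insensitive. All of these but 1 Integrator host, which lay below the limit, lay above it.

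Among highly expressed families, insensitive uaRNAs were 1 of 45 at ribosomal protein genes (Rps2), 1 of 16 at SR protein and hnRNP genes (Srsf9), 1 of 17 at pluripotency genes (Gbx2) and 1 of 13 at proteasome genes (Psmb6). Over all 2704 the share was 11.7%, and counts of 1 in 13 to 17 are near it. The median log2 differences of these 4 lists were 1.24, 1.24, 0.94 and 0.79, against 0.77 over all 2704. Rps2 is also the 1 of 9 snoRNA host genes. The Gbx2 uaRNA, whose host is a homeobox gene of naive pluripotency, had 355 and 289 reads in the libraries labelled siZC3H4 and 358, 334 and 305 in siNT libraries, and the lncRNA D130058E05Rik lies opposite. The Srsf9 uaRNA had 106 and 150 in the libraries labelled siZC3H4 and 116, 102 and 163 in siNT libraries.

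Exon reads of the hosts were not used by the rule and were tested with limma over all 12482 genes. Of 317 hosts, 313 passed the filter of a mean of 10 reads. Of these, 10 rose (3.19%) and 0 fell, against 2.22% of all genes that rose and 0.144% that fell. With edgeR the same 10 rose and 0 fell, beside 2.76% of all genes that rose and 0.152% that fell. DESeq2 called 20 and 2, beside 4.24% of all genes that rose and 1.17% that fell. Among 2383 tested hosts of other well-measured uaRNAs, 26 rose (1.09%). The median log2 difference over the 313 was 0.01, against 0.01 over all genes tested. The calls depended on the libraries in the fit, while the differences kept their direction in all 10 hosts whichever library was left out (log2 0.58 to 1.76). Of the 10, 0 passed without siNT replicate 1 or without siZC3H4 replicate 2, fits in which 2 and 10 of all genes tested rose; 3 passed without siNT replicate 2 (Camsap3, Rad50 and Zc3h4) and 1 without siZC3H4 replicate 3 (Zc3h4). Without siNT replicate 3, 26 hosts rose, beside 5.42% of all genes.

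The largest rise was in Prss48, a serine protease gene, with 62.8 and 68.8 exon reads in the libraries labelled siZC3H4 and 20, 17.4 and 24.7 in siNT libraries (log2 1.63 ± 0.30 SE, limma adjusted p = 0.028). Syt11, a synaptotagmin gene, had 181 and 192 exon reads in the libraries labelled siZC3H4 and 88, 75.7 and 105 in siNT libraries (log2 1.06 ± 0.22 SE, limma adjusted p = 0.043). Zc3h4 rose by a similar amount (log2 1.01 ± 0.11 SE), with 7285 and 6718 reads in the libraries labelled siZC3H4 and 3465, 3610 and 3363 in siNT libraries. The groups did not overlap in any of the 3, while the uaRNAs upstream of Prss48 and Zc3h4 overlapped between groups. Selection shapes this contrast here and below: called exon reads chose the hosts, and near-equal group means chose their uaRNAs. The Syt11 uaRNA had 368 and 383 reads in the libraries labelled siZC3H4 and 439, 441 and 386 in siNT libraries, so its siZC3H4 libraries lay below all siNT libraries.

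Rad50, which encodes a subunit of a DNA double-strand break repair complex, had 1654 and 1707 exon reads in the libraries labelled siZC3H4 and 994, 985 and 934 in siNT libraries (log2 0.79 ± 0.12 SE, limma adjusted p = 0.013). Its uaRNA had 1079 and 742 reads in the libraries labelled siZC3H4 and 1049, 821 and 642 in siNT libraries. Mus81 had 1645 and 1688 exon reads in the libraries labelled siZC3H4 and 1098, 1002 and 935 in siNT libraries (log2 0.72 ± 0.13 SE, limma adjusted p = 0.024). In both, exon reads were separate between groups and uaRNA reads were not.

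The other 5 rises lay between log2 0.69 and 1.00. Camsap3, which encodes a protein of microtubule minus ends, had 3650 and 2955 exon reads in the libraries labelled siZC3H4 and 1926, 2137 and 1880 in siNT libraries. Chmp2a, an ESCRT-III subunit gene, had 2153 and 1753 in the libraries labelled siZC3H4 and 1125, 1097 and 1281 in siNT libraries. In both, siZC3H4 replicate 2 was the highest library. 2310039H08Rik had 532 and 434 in the libraries labelled siZC3H4 and 286, 228 and 211 in siNT libraries. Xkr5 had 835 and 785 in the libraries labelled siZC3H4 and 441, 516 and 530 in siNT libraries, and 5730455P16Rik had 894 and 913 in the libraries labelled siZC3H4 and 503, 563 and 620 in siNT libraries. The groups were separate in each, which the choice by called exon reads largely fixes. Of the 10 hosts, Prss48 alone had an annotated opposite-strand gene within 2 kb, Sh3d19.

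**Figure D5:**
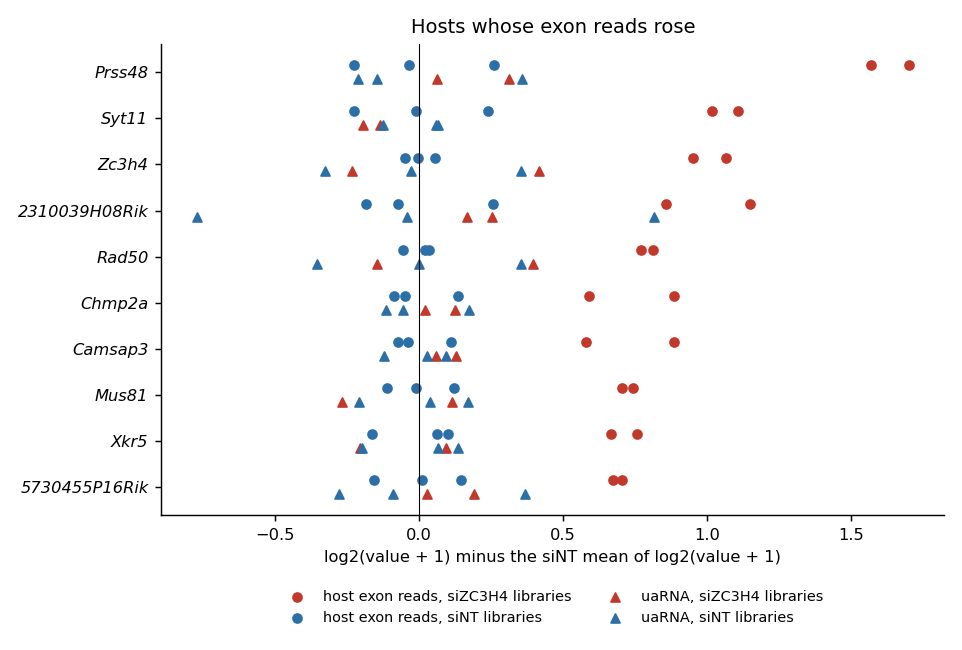
Log2(value + 1) minus the siNT mean of log2(value + 1) for each library at the 10 hosts whose exon reads rose, with exon reads as circles and the uaRNA as triangles, siZC3H4 libraries in red and siNT libraries in blue. Red circles lie to the right of all blue circles in each host, while the triangles overlap between groups in every host except Syt11, where the red ones lie to the left. Called exon reads chose the hosts and near-equal group means chose their uaRNAs, so the contrast largely follows from these choices.

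Wdr82 exon reads were 8778 and 9974 in the libraries labelled siZC3H4 and 8967, 8088 and 9450 in siNT libraries, which did not pass the test (log2 0.09 ± 0.12 SE, limma adjusted p = 0.83). Cstf3 exon reads were 702 and 837 in the libraries labelled siZC3H4 and 752, 901 and 1003 in siNT libraries (log2 -0.20 ± 0.16 SE, limma adjusted p = 0.66). Over the 6 genes of the Restrictor and PNUTS-PP1 list that were tested, 1 rose, Zc3h4, and 0 fell. No gene of the cleavage and polyadenylation (17 tested), Integrator (13) or U1 and pausing (24) lists passed the test in either direction.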

How the data were processed

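Per the submitters' processing notes, reads were handled with cutadapt 1.14, STAR, featureCounts and DESeq2, with builds mm10 and dm6 named; their settings, the strand option and how depth factors were obtained are not given in the sources used here. Deposited tables hold read signal per uaRNA region and per gene (exons), which the authors divided by a depth factor per library (1, 1.15, 1.172, 1.767 and 1.046). Multiplying by it gave whole reads for 100% of values within 0.01. The libraries' total reads limit the precision of each value, and the labels do not say that replicates were grown apart, so p-values measure the spread between these libraries only.

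Members were found by the stated rule. Exon and uaRNA values were tested with limma 3.58.1 (R 4.3.3) on log2(value + 1), over features with a mean of 10 or more, with Benjamini-Hochberg adjustment at 0.05, in a script tested on simulated data; fold changes are on that scale and understate those of low genes. The uaRNA test is descriptive for the members, which the same values chose. edgeR 4.0.16 and DESeq2 1.42.0 on the recovered reads were alternatives. Hosts were joined by gene ID, and upstream genes came from the gene table and RefSeq (GRCm38.p6); region coordinates are not in the uaRNA table. For 6 genes, 1 of them a host, the table's start lies after its end and the ends were exchanged. Hosts were named by rule: high level, with and without a divergent start, called exon reads, nearness to the limit, list membership, extreme span, extreme ratio, replicate overlap and replicate gap. The members, rule and gene lists were chosen with earlier results of these data known. DMSO and dTAG-13 samples are not analysed here.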

Additional observations from a re-analysis of the deposited data

How the results depend on the processing

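The set depends on the scaling and on the libraries. A limit of 0.1 left 155 insensitive uaRNAs, and leaving out 1 library gave 276 to 374. Scaling the uaRNA table on itself gave 696 (median of ratios) and 717 (TMM), with 0 of the 317 in either, which the size of the shift fixes. The share with a divergent start was 22.1% with a window of 2 kb (others 10.3%). The share with an opposite-strand gene was 23.3%, 26.5% and 42.0% with windows of 500 bp, 1 kb and 5 kb (others 15.3%, 16.5% and 22.5%). It was 43.2% with a limit of 0.1 (others 18.7%), and 27.8% and 43.3% with a siNT mean of 20 and of 100 or more (others 15.7% and 21.4%). It was 16.1% and 15.9% for the sets under both self-scalings, which are other regions. The share of the others was not counted under those scalings. The median host span was 15236 to 22626 bp with 1 library left out, 24293 bp with the median of ratios and 24788 bp with TMM. The counts of hosts below have the share of all genes tested in brackets. Hosts that rose numbered 20 with DESeq2 (4.24%), 2 with no filter on low values (0.290%) and 0 to 26 with 1 siNT library left out (0.0160% to 5.42%). Hosts that fell numbered 2 with DESeq2 (1.17%) and 0 to 2 with 1 siNT library left out (0% to 1.10%). With the replicate number as a replicate block, 37 hosts rose and 22 fell, beside 12.3% and 6.65% of all genes. In that fit siNT replicate 1 had no same-numbered partner, so the differences rested on replicates 2 and 3 alone. The groups share 2 replicate numbers. Deviations from the group mean correlated between libraries of the same number (r = 0.53 and 0.62). With 2 siZC3H4 libraries their deviations are mirror images, so these are not separate observations and cannot establish pairing. Over the whole uaRNA table, 481 rose with DESeq2's own size factors and 1824 to 3119 with 1 library left out, against 3180. The Zc3h4 exon difference was 0.95 to 1.07 with 1 library left out. The median host difference kept within the spread between siNT libraries under every alternative run. Causes of these shifts were not tested. Depth limits the weakest regions, near 50 reads, most.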
